A study of Drosophila melanogaster with 33 samples.

Results

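The genes described here are peritrophins, mucin genes, a chitin synthase and genes of the chitinase family. They were followed in the fly midgut through the replacement of the larval gut at metamorphosis. Whether each of them acts in the chitin-containing lining of the midgut was not tested. They are 9 genes chosen by name: Peritrophin-15a, Peritrophin-15b, Muc55B, Mur89F, Chs2, Cht2, Cht4, Cht8 and Cht9. Each of the 9 symbols was found on 1 probe in the annotation table of the array platform, so 9 of the 14064 probes with a value carry the results. The study profiled midguts of wild-type Drosophila melanogaster of the Canton S strain at 11 stages, with 3 arrays per stage and 33 in all. Larvae were taken 18 h and 4 h before the puparium formed (BPF), prepupae at its formation (0 h) and at 2, 3, 4, 5, 6, 8, 10 and 12 h afterwards (APF). No group carried a treatment, a transgene or a mutation. On every array RNA from midguts of 1 stage, amplified by in vitro transcription and labelled with Cy5, was hybridised with a Cy3-labelled midgut reference mixed from 10 of the stages, all but 10 h APF. The labels call the samples of the 3 hybridisations of a stage independent and give no number of animals per sample.

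The peritrophic matrix is a porous sheet of chitin fibres and glycoproteins that lines the insect midgut and keeps food and microbes away from the epithelium. Chitin is polymerised at the cell surface by chitin synthases, of which Chs2 is the type that insects use in the midgut and kkv the type used for cuticle. Peritrophins and mucins bind or coat the chitin fibres, and chitinases of the glycosyl hydrolase 18 family cut them. During metamorphosis the larval midgut epithelium is shed into the lumen and replaced by cells that grow from imaginal progenitors.

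Every value is the log2 of the stage signal over the reference signal, and 1 unit is a doubling of the RNA. Neither the base nor the direction of the ratios is stated by the authors. Both were inferred: a mean of ratios over the 10 pooled stages should be the same for each probe, and the SD of its log2 over 7288 probes was 0.117 for log2 stage over reference, against 0.509 with the sign turned and 0.204 with natural logarithms. Some array pairs ran opposite ways, with 100 of 495 pairs of different stages correlated below -0.3 over probes (lowest -0.53), and the direction given by the dyes in the labels was kept. If the 10 stages were mixed equally, no ratio of a pooled stage could exceed 3.32, so the highest ratios lie near a ceiling. A ratio compares stages for 1 probe and gives no level, so levels of different genes were not compared, and marker genes could not show whether a tissue was present. Spot intensities were not used here. Whether the low ratios near -4 lie close to background was therefore not tested.

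The genes differed in the stages at which they were highest (see the plots by array and by period). Peritrophin-15a, Peritrophin-15b and Muc55B were highest in the larval midgut before puparium formation and lowest at 6 or 8 h APF, with highest and lowest stage means 77.1-, 41.4- and 67.1-fold apart. Mur89F and Cht4 were lowest at 4 h BPF and highest after puparium formation, 13.1- and 8.11-fold apart. Chs2 and Cht8 were highest at 12 h APF, 40-fold above the lowest stage for Chs2 and 209.5-fold for Cht8. Cht9 and Cht2 varied least, with ranges of 2.56- and 1.82-fold. The lowest stage of Cht9, 6 h APF, had a value on 1 array only.

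**Figure D1:**
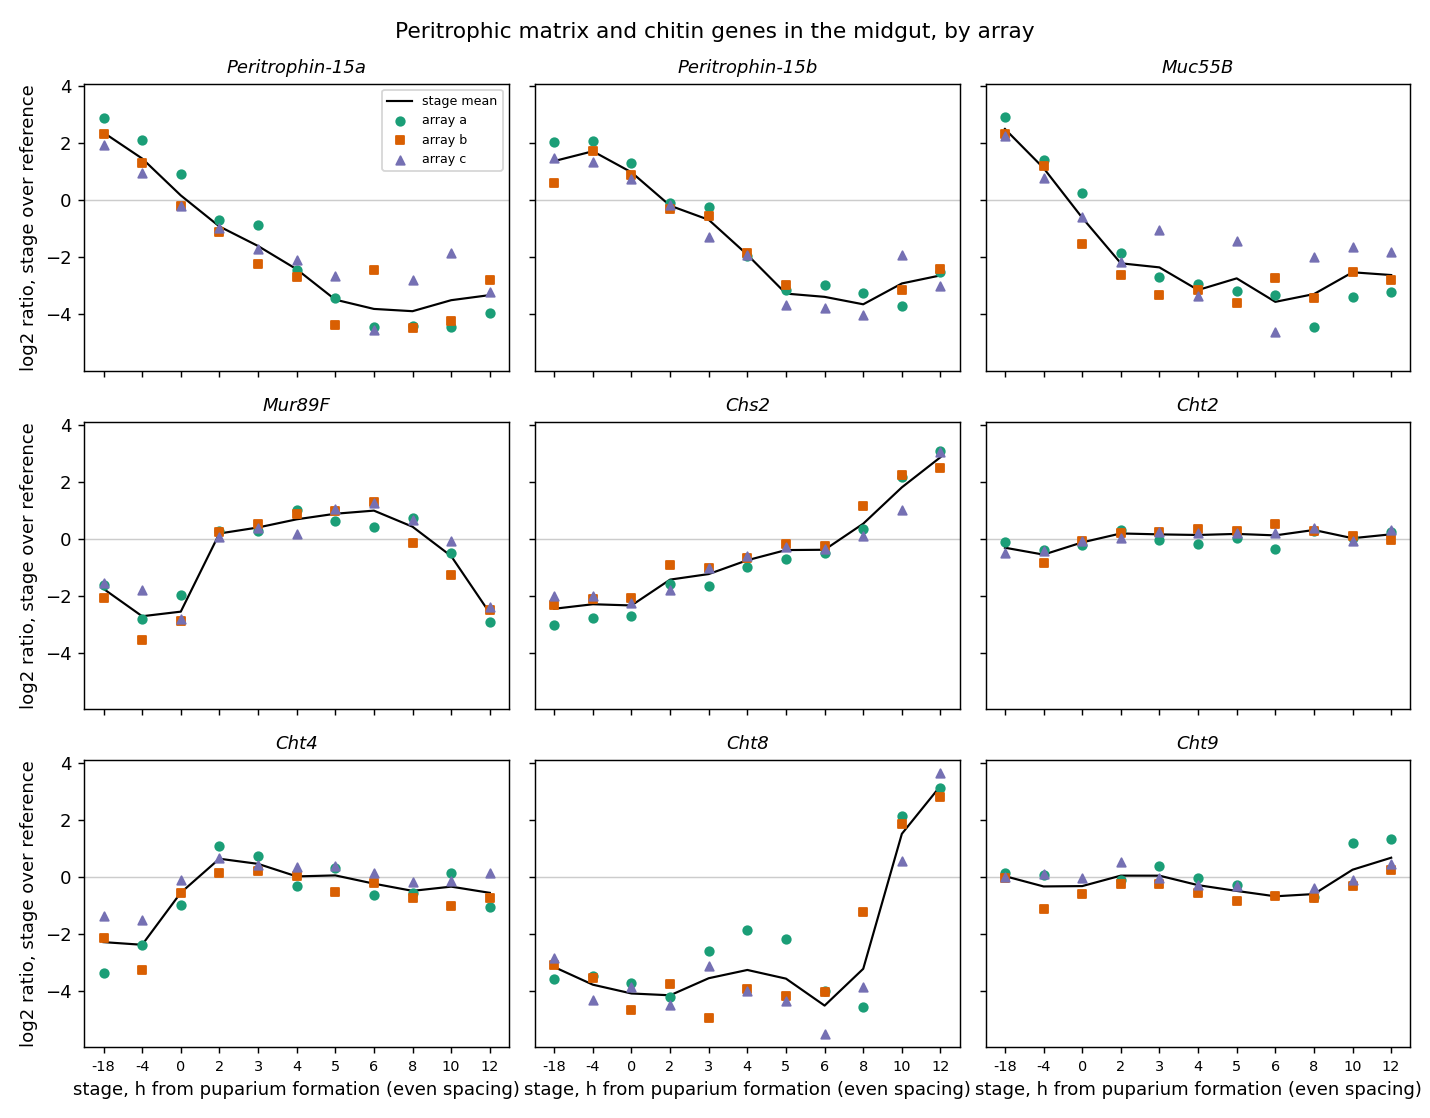
Log2 ratio of stage over reference (vertical axis) for each of the 9 genes at the 11 stages in order (horizontal axis, h from puparium formation, evenly spaced), with 1 symbol per array and a line through the stage means. The larval peritrophins and Muc55B run downwards from the left, Chs2 and Cht8 end at 2.86 and 3.19 on the right, and Mur89F stands high only between 2 and 8 h APF.

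The stage means were turned into linear ratios, and each stage was expressed as a percent of their sum over the 11 stages. For Muc55B 80.9% of the sum fell on 18 h and 4 h BPF, for Peritrophin-15a 75.5% and for Peritrophin-15b 57.8%. The 10 h and 12 h APF stages held 94.3% of the sum for Cht8 and 68.6% for Chs2. Between 2 and 8 h APF lay 86.5% of the sum of Mur89F and 72% of that of Cht4, where a gene with equal ratios at all stages would have 54.5% (6 of 11 stages).

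**Figure D2:**
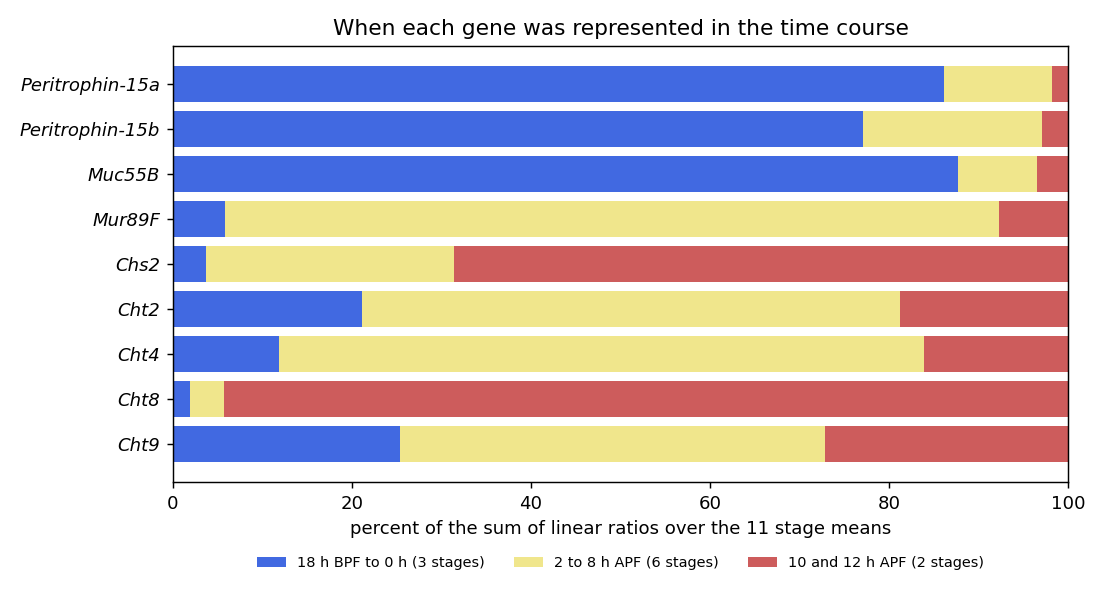
Percent of the sum of linear ratios over the 11 stage means (horizontal axis) that fell in 3 periods, stacked for each gene. The first period holds 87.7% for Muc55B and 1.91% for Cht8, and the last holds 3.46% for Muc55B and 94.3% for Cht8.

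A moderated F test over the 11 stages, from 1 limma model of all 33 arrays, was passed by 8 of the 8 genes that could be tested, at a Benjamini-Hochberg adjusted p under 0.05. Of all 7257 probes tested 57.1% passed it, so passing alone does not set the genes apart. Adjusted p-values ran from 2.71e-14 for Chs2 to 0.0103 for Cht2. The call for Cht2 was lost without array b of 4 h BPF (adjusted p = 0.0676). Cht9 was not tested, because it had a value on 1 array only at 6 h APF. In all limma tests given here, stages were compared for probes with 2 or more values in both.

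Peritrophin-15a encodes a small chitin-binding protein of the peritrophic matrix. Its log2 ratios on arrays a, b and c, the order used throughout, were 2.89, 2.32 and 1.92 at 18 h BPF, 2.12, 1.31 and 0.97 at 4 h BPF, and 0.93, -0.21 and -0.20 at 0 h. They were -0.70, -1.10 and -0.96 at 2 h APF, -0.87, -2.24 and -1.70 at 3 h, -2.46, -2.71 and -2.10 at 4 h, and -3.44, -4.37 and -2.65 at 5 h. All arrays up to 4 h BPF lay above all later ones, and those of 5 h lay below all those of 2 h and 3 h. At 6 h APF the values were -4.43, -2.44 and -4.57, at 8 h -4.41, -4.48 and -2.79, at 10 h -4.45, -4.23 and -1.84, and at 12 h -3.96, -2.81 and -3.21. From 5 h on the stages overlapped, and 1 array of each of the 6, 8 and 10 h stages stood well above the other two. Between 18 h BPF and 0 h Peritrophin-15a fell by 2.20 ± 0.58 (SE, n = 3 and 3), or 4.61-fold (adjusted p = 0.00682, limma). Between 0 h and 6 h APF it fell again, with a change of -3.98 ± 0.58, or 15.8-fold (adjusted p = 4.67e-06). No step between neighbouring stages passed on its own for this gene. In whole-organ RNA, fewer cells of a type and less RNA per cell cannot be told apart. Under quantile normalization these changes were -1.33 (adjusted p = 0.0134) and -2.87, and without array b of 6 h APF the second was -4.67.

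Peritrophin-15b encodes a similar chitin-binding protein, and the RefSeq gene table lists the pair next to each other with no gene between them. Its values were 2.03, 0.60 and 1.5 at 18 h BPF, 2.10, 1.73 and 1.34 at 4 h BPF, and 1.32, 0.88 and 0.75 at 0 h. The arrays of 0 h lay within the range of those of 18 h BPF, where the arrays of Peritrophin-15a did not overlap. After puparium formation the values were -0.09, -0.31 and -0.17 at 2 h, -0.22, -0.55 and -1.28 at 3 h, -1.96, -1.86 and -1.92 at 4 h, and -3.16, -2.98 and -3.67 at 5 h. The arrays of 2 h lay below all those of 0 h, and each of the stages 4 h and 5 h lay wholly below the one before. The step from 0 h to 2 h was -1.17 and did not pass (adjusted p = 0.0532, limma). It passed in 5 alternatives (adjusted p = 0.0104 to 0.0464). These were median centring, quantile normalization, the replicate letter as a block, only the arrays compared, and leaving out array c of 0 h. At 6 h and 8 h APF 2 arrays each had a value (-2.98 and -3.79, then -3.27 and -4.04), followed by -3.69, -3.13 and -1.93 at 10 h and -2.51, -2.39 and -3.01 at 12 h. These late stages overlapped, except that both values of 8 h lay below those of 12 h. From 18 h BPF to 0 h the change was -0.40 ± 0.36 and did not pass (adjusted p = 0.558), whereas from 0 h to 6 h APF Peritrophin-15b fell by 4.37 ± 0.41, or 20.7-fold (adjusted p = 4.1e-09). The latter change was -2.95 under quantile and -3.51 under scale normalization, and was still called. The difference between the courses of the neighbouring genes was not tested.

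Peritrophin-15b gave the only unadjusted p-values under 0.05 among the 9 genes in the hourly steps between 2 h and 6 h APF. Its change from 3 h to 4 h was -1.23 (unadjusted p = 0.00233) and that from 4 h to 5 h -1.36 (unadjusted p = 0.000892). After adjustment limma called 0 probes of any gene in those 4 steps, where 259, 329, 369 and 749 probes had an unadjusted p under 0.05, and the adjusted p of Peritrophin-15b was 0.953 and 0.829. Over the whole of that interval, from 2 h to 6 h APF, a comparison chosen after seeing the data, Peritrophin-15b fell by 3.20 ± 0.41 (adjusted p = 4.8e-06) and Peritrophin-15a fell by 2.90 ± 0.58 (adjusted p = 0.000968). Among all probes 7.33% were called lower and 4.96% higher in it. Quantile normalization gave -1.73 and -1.75 for these changes, scale normalization gave -2.43 for Peritrophin-15b, and without array b of 6 h APF the change of Peritrophin-15a was -3.58, all still called.

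Muc55B encodes a mucin, a heavily glycosylated secreted protein. Its arrays stood at 2.94, 2.32 and 2.25 at 18 h BPF, at 1.41, 1.21 and 0.78 at 4 h BPF, at 0.27, -1.53 and -0.57 at 0 h, and at -1.86, -2.62 and -2.16 at 2 h APF. Each of these stages lay wholly below the one before it. At 3 h they were -2.71, -3.33 and -1.03, at 4 h -2.93, -3.16 and -3.35, at 5 h -3.19, -3.60 and -1.43, and at 6 h -3.34, -2.72 and -4.64. At 8 h they were -4.45, -3.42 and -2.01, at 10 h -3.41, -2.52 and -1.65, and at 12 h -3.23, -2.81 and -1.83. The arrays of 4 h and 6 h lay below those of 2 h, and the stages from 3 h on overlapped with each other. Muc55B fell by 3.11 ± 0.61 from 18 h BPF to 0 h (8.65-fold, adjusted p = 0.000344) and then changed by -2.95 ± 0.61 from 0 h to 6 h APF (7.75-fold, adjusted p = 0.000469). The step from 4 h BPF to 0 h was -1.74 (adjusted p = 0.146) and that from 0 h to 2 h APF -1.60 (adjusted p = 0.122), and both passed under quantile normalization only (adjusted p = 0.0266 and 0.0151). Quantile normalization also moved the longer changes to -2.17 and -1.92, both still called.

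Markers of the larval midgut epithelium, a list of digestive enzyme genes measured with 12 probes, were followed beside these 3 genes. From 18 h BPF to 0 h 7 of the 12 probes were lower and none higher, with a median change of -2.92 against 0.06 over all probes. Among all probes 7.34% were called lower and 10.1% higher. From 0 h to 6 h APF 8 were lower and none higher, with a median of -3.68 against 0.01, where 11.4% of all probes were called lower. Marker genes are named with their values seen. Of 6 visceral muscle probes 5 were lower from 18 h BPF to 0 h (median -1.06), and the fat body gene Fbp1 was higher (2.12, adjusted p = 0.0125), 1 of 2 fat body probes tested. The part of these cell types in the changes of the peritrophins and Muc55B was not tested.

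Mur89F is a mucin-related gene, and it was low when the larval peritrophins and Muc55B were high. Its values were -1.64, -2.08 and -1.57 at 18 h BPF, -2.81, -3.55 and -1.81 at 4 h BPF, and -2.0, -2.89 and -2.81 at 0 h. At 2 h APF they were 0.25, 0.23 and 0.05. No array of 2 h overlapped with any of the 3 earlier stages. From 3 to 6 h they were 0.27, 0.51 and 0.39, then 0.99, 0.87 and 0.17, then 0.62, 0.97 and 1.03, then 0.40, 1.30 and 1.24. At 8 h they were 0.73, -0.15 and 0.66, at 10 h -0.49, -1.27 and -0.08, and at 12 h -2.94, -2.51 and -2.39. The arrays of 2 h lay below those of 3, 5 and 6 h and within the range of those of 8 h, and the 12 h arrays lay below all arrays from 2 to 10 h and within the range of those of 4 h BPF.

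Mur89F rose by 2.74 ± 0.34 within the first 2 h after puparium formation, or 6.70-fold (adjusted p = 6.2e-06), a step in which 3.62% of all probes were called higher. It fell by 2.0 ± 0.34 from 10 h to 12 h APF, or 4.0-fold (adjusted p = 0.000543), where 1.35% of all probes were called lower. Over the longer intervals it rose by 3.55 ± 0.34 from 0 h to 6 h APF (11.7-fold, adjusted p = 4.0e-09) and fell by 3.60 ± 0.34 from 6 h to 12 h APF (12.1-fold, adjusted p = 1.37e-08), the latter -4.21 under quantile normalization. The change between 18 h BPF and 12 h APF was -0.85 ± 0.34 and did not pass (adjusted p = 0.0901). That comparison passed when only the arrays of both stages were used (adjusted p = 0.033). The change from 18 h BPF to 0 h was -0.80 (adjusted p = 0.117), and without array a of 0 h it was -1.09 and passed (adjusted p = 0.0388).

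Chs2, the midgut-type chitin synthase, had its lowest ratios before puparium formation and its highest at the end of the series. The arrays stood at -3.03, -2.34 and -2.02 at 18 h BPF, at -2.77, -2.12 and -2.03 at 4 h BPF, and at -2.71, -2.07 and -2.26 at 0 h. These 3 stages overlapped throughout. At 2 h APF the values were -1.59, -0.93 and -1.79, at 3 h -1.66, -1.03 and -1.05, at 4 h -1.01, -0.68 and -0.60, at 5 h -0.72, -0.18 and -0.31, and at 6 h -0.52, -0.28 and -0.38. All arrays of 2 h lay above all earlier ones, and the neighbours 2 and 3 h, 4 and 5 h, and 5 and 6 h overlapped. At 8 h they were 0.32, 1.13 and 0.11, at 10 h 2.17, 2.22 and 1.0, and at 12 h 3.08, 2.46 and 3.03. The 12 h arrays lay above all others, and array c of 10 h lay below the highest of 8 h.

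Chs2 rose by 1.95 ± 0.31 from 0 h to 6 h APF (3.88-fold, adjusted p = 2.02e-05) and by 3.25 ± 0.31 from 6 h to 12 h APF (9.51-fold, adjusted p = 1.86e-08). Under quantile normalization the second change was 2.45 and still called. The earlier part of the rise was also called between 2 h and 6 h APF (1.05 ± 0.31, adjusted p = 0.0267). That call was lost without array a or c of 2 h or array a of 6 h (adjusted p = 0.107, 0.0939 and 0.0531). From 8 h to 10 h APF Chs2 rose by 1.28 ± 0.31 (adjusted p = 0.0327), in a step where 0.767% of all probes were called higher. Removing array a or c of 8 h, or array a or b of 10 h, lost this call (adjusted p = 0.162, 0.186, 0.198 and 0.147), as did quantile and scale normalization and a fit of those arrays alone (0.135, 0.132 and 0.285). From 8 h to 12 h APF, a comparison chosen after seeing the data, Chs2 rose by 2.33 ± 0.31 (adjusted p = 5.04e-06), and it kept that call when any 1 array of either stage was removed (highest adjusted p = 9.69e-05) and under quantile normalization (1.61). The change from 18 h BPF to 0 h was 0.12 ± 0.31 (adjusted p = 0.872), and it passed under quantile normalization only (0.94, adjusted p = 0.0162).

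Cht8 belongs to the glycosyl hydrolase 18 family and gave the widest range of the 9 genes. Its values were -3.57, -3.08 and -2.85 at 18 h BPF, -3.49, -3.55 and -4.32 at 4 h BPF, -3.74, -4.67 and -3.88 at 0 h, and -4.21, -3.76 and -4.51 at 2 h APF. At 3 h they were -2.60, -4.94 and -3.13, at 4 h -1.88, -3.93 and -3.99, at 5 h -2.20, -4.17 and -4.35, at 6 h -4.0, -4.03 and -5.53, and at 8 h -4.57, -1.24 and -3.88. Up to 8 h all arrays were below -1, and the arrays of a stage differed most at 8 h, where array b stood well above the other two. At 10 h they were 2.12, 1.86 and 0.54, and at 12 h 3.13, 2.80 and 3.64. Every array of 10 h and 12 h lay above every earlier array, and the 12 h arrays lay above those of 10 h. Array c of 12 h lies above the ceiling of 3.32 that an equal mixture would set.

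Cht8 rose by 4.74 ± 0.68 from 8 h to 10 h APF, or 26.7-fold (adjusted p = 0.000178). The adjusted p was 0.0525 when only the arrays of those stages were fitted, with the same change. The change was 3.62 under quantile normalization, 4.07 without array a and 5.74 without array b of 8 h, and was called each time. Between 6 h and 12 h APF it rose by 7.71 ± 0.68 (209.5-fold, adjusted p = 3.68e-09), and between 18 h BPF and 12 h APF by 6.36 ± 0.68 (82.0-fold, adjusted p = 3.27e-08). Under quantile normalization the change from 6 h to 12 h was 5.86 and still called. The step from 10 h to 12 h was 1.68 ± 0.68 and did not pass (adjusted p = 0.272). Array c of 10 h was closer to 0 than the other two for Cht8, Chs2, Mur89F, Peritrophin-15a, Peritrophin-15b and Muc55B. Over the 2249 probes with values on all arrays its SD was 0.652, against 1.08 and 0.972 on arrays a and b.

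Cht4 and Cht9 are relatives of Cht8, and the RefSeq gene table lists Cht8, Cht12, Cht4 and Cht9 one after the other. Cht12 was not analysed here. Cht4 stood at -3.37, -2.14 and -1.36 at 18 h BPF, at -2.39, -3.27 and -1.50 at 4 h BPF, at -0.98, -0.57 and -0.12 at 0 h, and at 1.09, 0.15 and 0.66 at 2 h APF. No array of 0 h overlapped with the larval stages before it, and no array of 2 h with those of 0 h. Later stage means of Cht4 lay between 0.45 (3 h APF) and -0.56 (12 h APF), and single arrays between 0.73 and -1.07. It rose by 1.83 ± 0.42 in the last 4 h before puparium formation (3.55-fold, adjusted p = 0.0107), where 1.6% of all probes were called higher. That call was lost without array b of 4 h BPF (1.39, adjusted p = 0.089), without array c of 0 h (1.61, adjusted p = 0.0562) and in a fit of those 2 stages alone (adjusted p = 0.0859). From 18 h BPF to 0 h Cht4 rose by 1.73 ± 0.42 (adjusted p = 0.00339), and from 18 h BPF to 12 h APF by 1.73 ± 0.42 (adjusted p = 0.00346). Without array a of 18 h BPF these changes were 1.19 and 1.19 and missed the threshold (adjusted p = 0.0536 and 0.0598), while under quantile normalization they were 2.64 and 2.63.

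Cht9 stayed within a narrow range. Its arrays lay between -1.15 and 0.51 from 18 h BPF to 8 h APF. They were -0.69, -0.73 and -0.39 at 8 h APF, 1.18, -0.32 and -0.11 at 10 h, and 1.33, 0.24 and 0.44 at 12 h. The 12 h arrays lay above all those of 8 h, while the 10 h arrays, also above those of 8 h, overlapped with those of 12 h. From 8 h to 12 h APF Cht9 rose by 1.28 ± 0.34 (2.42-fold, adjusted p = 0.0146). Without array a of 12 h this was 0.94 and did not pass (adjusted p = 0.111).

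Cht2, a further chitinase gene, was nearly level. Its lowest stage was 4 h BPF with -0.39, -0.87 and -0.43, and its highest 8 h APF with 0.26, 0.28 and 0.36. The arrays of these 2 stages did not overlap, and all 32 values lay between -0.87 and 0.50. No longer change and no step passed for Cht2. The change from 18 h BPF to 12 h APF was 0.47 ± 0.21 (adjusted p = 0.139).

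Muc55B and Peritrophin-15a fell in both of the first 2 intervals and Peritrophin-15b in the second, and Cht8 rose in the third. In the first, from 18 h BPF to 0 h, 9 genes were tested, of which 2 were lower (Muc55B and Peritrophin-15a) and 1 was higher (Cht4). Among all probes 7.34% were called lower and 10.1% higher. In the second, 0 h to 6 h APF, 3 of 8 were lower (both peritrophins and Muc55B) and 2 higher (Mur89F and Chs2), against 11.4% and 13.3% of all probes. In the third, 6 h to 12 h APF, 1 of 8 was lower (Mur89F) and 2 were higher (Cht8 and Chs2), against 13% and 8.72%. None of the 3 larval genes was regained in that interval at the threshold: the changes were 0.49 for Peritrophin-15a, 0.75 for Peritrophin-15b and 0.94 for Muc55B (adjusted p = 0.608, 0.2 and 0.29). Under quantile normalization these changes were -0.69, -0.93 and -0.31. In the comparison from 8 h to 12 h APF 1 of 9 genes was lower (Mur89F) and 3 were higher (Cht8, Chs2 and Cht9), beside 6.42% and 4.41% of all probes. Peritrophin-15b changed by 1.01 in it and did not pass (adjusted p = 0.12). It passed under scale normalization only (1.72, adjusted p = 0.0195), and quantile normalization gave -0.16.

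**Figure D3:**
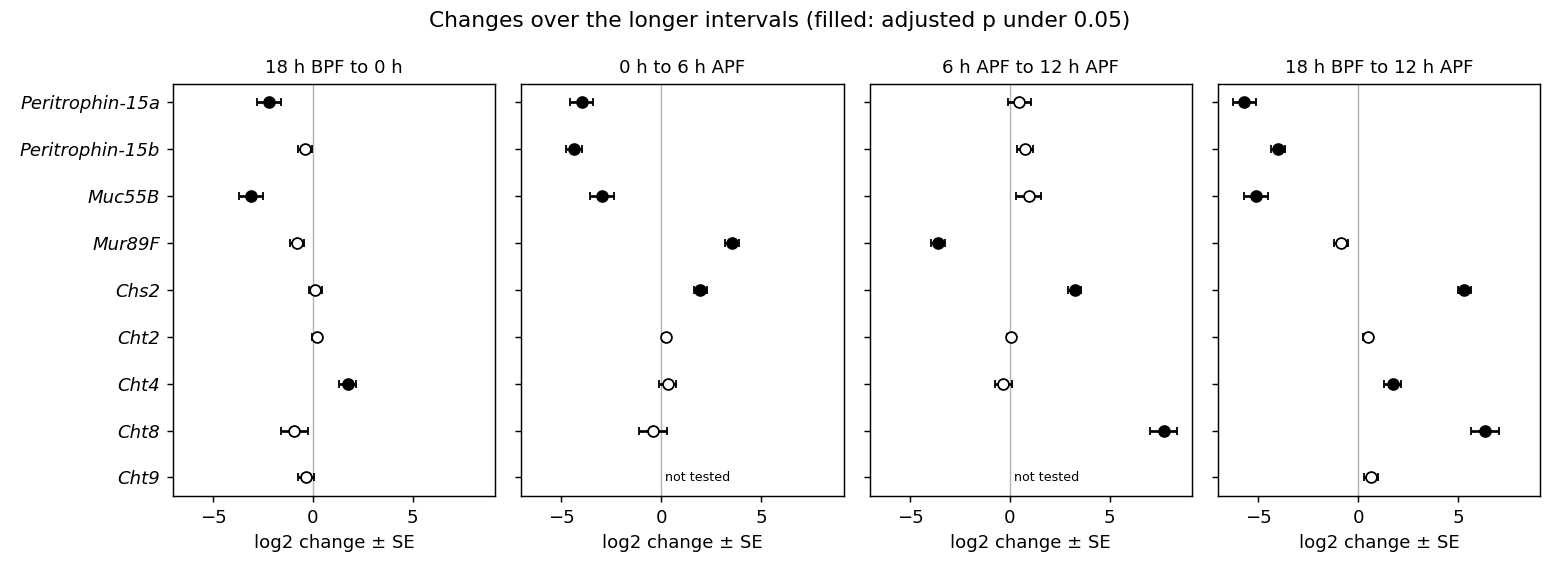
Change of the log2 ratio with its SE (horizontal axis) for the 9 genes over the 4 longer intervals, with filled points where the adjusted p was under 0.05. Peritrophin-15a lies at -2.20 and -3.98 in the first and second panel, Cht8 at 7.71 in the third, and the larval and late genes lie on opposite sides of 0 in the fourth.

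The contrast of the larval peritrophins with the late chitin genes can be read from the first and the last stage. Between 18 h BPF and 12 h APF Peritrophin-15a fell by 5.70 ± 0.58, Muc55B fell by 5.13 ± 0.61 and Peritrophin-15b fell by 4.01 ± 0.36 (52.1-, 34.9- and 16.2-fold, highest adjusted p = 1.79e-07). Quantile normalization gave -4.89 for Peritrophin-15a and -4.40 for Muc55B, both still called. Chs2 rose by 5.32 ± 0.31 (40-fold, adjusted p = 3.64e-13), and Cht8 and Cht4 were the other 2 of the 9 genes called higher. Among all probes 8.18% were called lower and 9.3% higher. No array of 12 h overlapped with any of 18 h BPF for any of the 9 genes. That includes the nearly level Cht2, which had 2 values at 18 h BPF. Lack of overlap therefore does not set the larval and late genes apart, and its share over all probes was not counted. Both peritrophins had stage means below -3 from 5 h to 8 h APF, while Cht8 stayed below -3 until 8 h and was at 1.51 at 10 h. Chs2 was at -0.39 at 6 h, at 0.52 at 8 h and at 1.80 at 10 h. Its step from 6 h to 8 h did not pass (0.91, adjusted p = 0.113, limma), and the order of the changes of different genes was not tested.

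Over the 11 stage means, Peritrophin-15a and Peritrophin-15b correlated at 0.97 (Pearson) and 0.98 (Spearman), and Peritrophin-15a and Muc55B at 0.94 and 0.91. Chs2 and Cht8 correlated at 0.84 and 0.43. Chs2 correlated with Peritrophin-15a at -0.78 and -0.87. The neighbours Cht8 and Cht4 correlated at -0.02 and -0.35, and Cht4 and Cht9 at 0.01 and 0.05. For Cht9 the 6 h APF value rests on 1 array. Stage means of different genes share arrays and the reference, and the stages are ordered in time, so these values describe likeness of course only.

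Other genes of the chitin pathway were counted from 4 lists, named by role. The shares of all probes called lower and higher are the background of these counts. They were 7.34% and 10.1% from 18 h BPF to 0 h, and 11.4% and 13.3% from 0 h to 6 h APF. From 6 h to 12 h APF they were 13% and 8.72%, and over the whole interval 8.18% and 9.3%. In the list of chitin synthesis, 11 of 13 genes had probes, and kkv was not analysed here. Between 0 h and 6 h APF 4 of 11 probes were higher and none lower, with a median change of 0.51 (0.44 without Chs2) against 0.01 over all probes. Besides Chs2 they included Pgi, the glucose-6-phosphate isomerase (1.74 ± 0.22, adjusted p = 4.69e-07), and mmy, which makes the UDP-N-acetylglucosamine that chitin synthases use (1.16 ± 0.23, adjusted p = 0.0003). From 6 h to 12 h APF 4 of 12 probes were higher and 1 was lower, with a median of 0.38 (0.24 without Chs2) against -0.04. Treh, the trehalase, was higher on 2 probes (4.03 and 2.64), and a further Treh probe was not called (2.49, adjusted p = 0.056, limma). Hex-A, a hexokinase, was higher (1.19, adjusted p = 0.0142), and Gfat2, of the branch point to amino sugars, was lower (-1.65 ± 0.25, adjusted p = 7.53e-05). Before that, from 18 h BPF to 0 h, 1 of 12 was lower, Pgi (-1.25), and over the whole interval 3 of 13 were higher, Chs2, Hex-A (1.36) and Pgi (0.72).

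The list of chitinases and hexosaminidases had probes for 16 of 20 genes. Up to 0 h, from 18 h BPF, 4 of 13 probes were higher and none lower (median 0.19, 0.35 without the 4 of the 9 genes, 0.06 over all probes). They included, with Cht4, the chitinase-like growth factor gene Idgf4 (1.59 ± 0.27, adjusted p = 5.75e-05) and Cht5, a chitinase of the moulting cycle (1.38 ± 0.32, adjusted p = 0.00244). In the next interval, to 6 h APF, 1 of 10 was lower, Cht11 (-0.74, adjusted p = 0.0399), and none higher. From 6 h to 12 h APF Cht8 was the 1 higher of 11, and 2 were lower, Hexo2 (-1.46) and Cht5 (-1.42). Medians were 0.28 and -0.21 in these intervals. Between 18 h BPF and 12 h APF 4 of 14 were higher, with Cht8, Idgf4 (2.64) and Cht4 leading, and none was lower (median 0.42, against -0.03). Without the 9 genes 2 of 10 were higher (median 0.26), against 9.3% of all probes.

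Among peritrophins, mucins and other chitin-binding proteins, 20 of 34 genes had probes. In the interval from 18 h BPF to 0 h 4 of 19 probes were lower and none higher (median -0.40, -0.30 without the 9 genes, 0.06 over all probes). Without the 9 genes 2 of 15 were lower. The largest changes were those of obst-G (-4.04 ± 0.46, adjusted p = 1.73e-07) and obst-F (-3.41 ± 0.57, adjusted p = 5.17e-05), of the obstructor family of chitin-binding proteins, ahead of Muc55B. Between 0 h and 6 h APF 6 of 15 were lower and 5 higher (median -0.92, -0.13 without the 9 genes, 0.01 over all probes). Without the 9 genes 3 of 11 were lower and 4 higher, against 11.4% and 13.3% of all probes. obst-J was lower (-4.24 ± 0.66, adjusted p = 1.83e-05), between Peritrophin-15b and Peritrophin-15a in size. After Mur89F, the largest gains were on 1 probe of obst-B (2.04) and in knk, a gene for chitin organisation in cuticle (1.72 ± 0.28, adjusted p = 2.49e-05). From 6 h to 12 h APF 3 of 15 were lower, Mur89F, Gasp (-1.39) and 1 probe of obst-B (-1.30), and 1 was higher, obst-G (1.79). The other obst-B probe was not called (-0.77, adjusted p = 0.078, limma). Without the 9 genes 2 of 11 were lower and 1 higher. Between 18 h BPF and 12 h APF 6 of 21 were lower and 1 higher (median -0.35, -0.17 without the 9 genes, -0.03 over all probes). Without the 9 genes 3 of 17 were lower and 1 higher. Peritrophin-15a, obst-J (-5.29 ± 0.59) and Muc55B fell most, and knk was the higher one (1.94).

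Chitin deacetylases remove acetyl groups from chitin, and 4 of 6 listed genes had 9 probes. Cda9 fell by 3.07 ± 0.96 from 18 h BPF to 0 h (adjusted p = 0.0259) and fell by 3.75 ± 0.96 over the whole interval (adjusted p = 0.006). Of verm and serp, known in fly embryos for the chitin of the trachea, 1 of 5 and 1 of 2 probes were higher from 18 h BPF to 0 h (1.11 and 1.10), where the median over the 9 probes was 0.80, against 0.06 over all probes. Between 0 h and 6 h APF 6 of 8 deacetylase probes, which belong to 2 genes, were lower, 4 of verm (-1.41 to -2.35) and 2 of serp (-1.15 and -1.26). The median of the 8 was -1.67, against 0.01 over all probes, of which 11.4% were called lower. A further probe of verm, not tested in that interval, was the 1 of its 5 called lower from 18 h BPF to 12 h APF (-0.99).

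**Figure D4:**
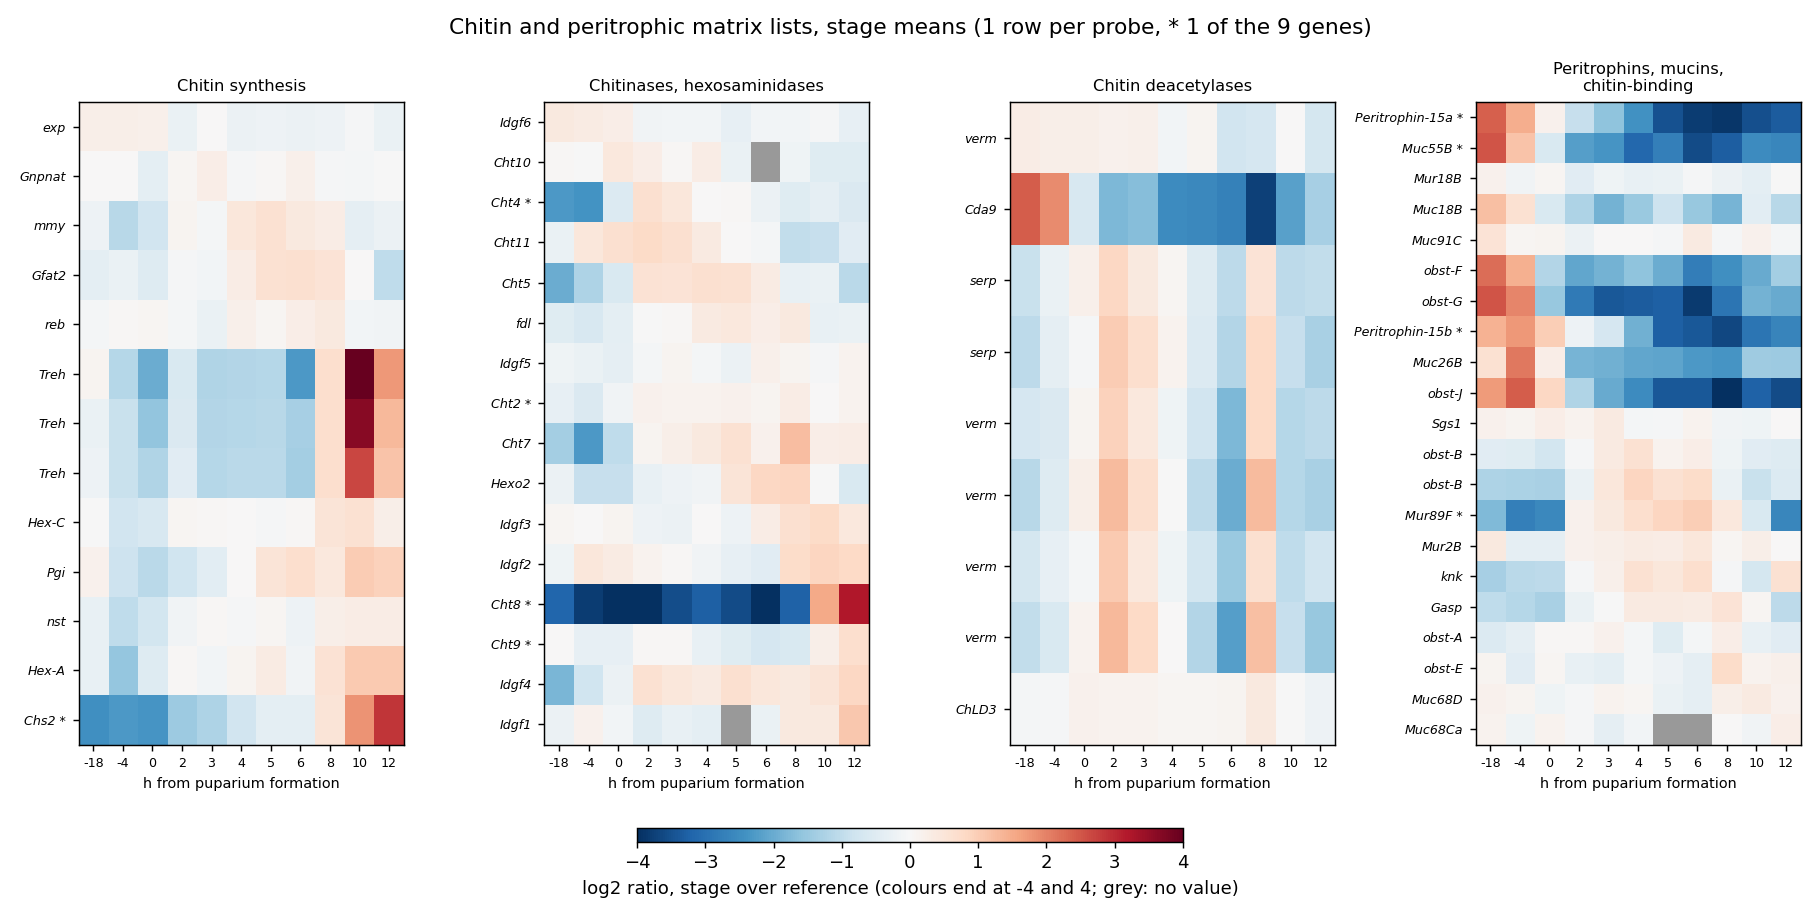
Stage means of the log2 ratio (colour, red above and blue below the reference) for every probe of the 4 chitin and peritrophic matrix lists at the 11 stages in order (horizontal axis, h from puparium formation), sorted by highest stage. In the right panel obst-F, obst-G and obst-J share the larval side with Peritrophin-15a, Peritrophin-15b and Muc55B, and in the second panel Cht8 is the strongest late row.

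Markers of cells that make cuticle, which could lie in attached trachea, foregut or hindgut, were followed beside the late genes. From 6 h to 12 h APF, when Chs2 and Cht8 rose, 2 of 12 probes were higher, Cpr51A (2.89) and Cpr49Ac (1.46), and 1 was lower, Gasp. From 0 h to 6 h APF, when Chs2 and Mur89F rose, 7 of 12 probes, of 8 genes, were lower and 2 higher, Gasp (1.64) and knk. Of the 7, 6 were the probes of verm and serp already counted as deacetylases, and the other was Cpr49Ac (-1.68). Among 3 haemocyte probes 1 was higher in that interval, Col4a1 (3.45). Of all probes 11.4% were called lower and 13.3% higher from 0 h to 6 h APF, with a median change of 0.01. Of 6 haemocyte probes 3 were lower from 6 h to 12 h APF and none higher (median -1.08), and 3 of 12 midgut epithelium probes were higher and none lower (median 1.08). The shares of all probes from 6 h to 12 h APF were 13% lower and 8.72% higher, with a median change of -0.04. From 8 h to 12 h APF, when Chs2, Cht8 and Cht9 rose, 7 of 14 cuticle probes, of 10 genes, were lower and 1 higher (median -1.48). Of these 7, 6 were probes of verm and serp, which weigh on the median, and the other was Gasp (-1.61). In the same comparison 5 of 6 haemocyte probes were lower (median -1.79). The median over all probes was -0.01, and 6.42% of them were called lower and 4.41% higher. From 6 h to 12 h APF 1 of 6 visceral muscle probes was higher, Tm2 (1.16), none of 3 fat body probes was called, and the 1 Malpighian tubule probe tested, Best2, was lower (-0.75). Salivary gland markers had at most 2 probes and no call. The part of these cells in the results of Mur89F, Chs2, Cht8 and Cht9 was not tested.

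For each of the 8 genes with at least 2 values in every stage, which leaves out Cht9, the 3 named probes with the most similar course over the 11 stage means were taken from 5858 probes. Those nearest Peritrophin-15a were CG33128, the trypsin gene etaTry and CG8560 (Pearson 0.99 each). Nearest Peritrophin-15b were CG5770, CG7567 and CG8997 (0.99 each), and nearest Muc55B were the alkaline phosphatase genes Alp6 and Alp5 with CG7252 (0.995, 0.993 and 0.994). For Mur89F they were ND-51, a subunit gene of respiratory complex I, CG14567 and shv (0.98 to 0.99). For Chs2 they were CG17233, Cyp40 and CG12065 (0.98 to 0.99), and for Cht8 CG7997, the pupal cuticle protein gene Pcp and CG13430 (0.97 to 0.98). Letm1, eas and CG31678 came nearest Cht4 (0.97 each), and ReepA, Dip-B and CG11883 nearest Cht2 (0.96 each). Picked as the highest of many, these correlations are high by construction.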

How the data were processed

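The deposited table holds 1 value per probe and array, log2 ratios of stage sample (Cy5, per the labels) to pooled reference (Cy3); how the authors corrected, normalized and filtered them is not given in the sources used here. Of 20000 entries 14064 had a value, 7006 to 13966 per array, and array medians ran from -0.029 to 0.118. Arrays of a stage correlated at 0.59 to 0.86 (median 0.75). Probes were named through the platform annotation (10828 with 1 gene, 227 with several, 3009 not listed) and a RefSeq gene table used for names and order only. Sequences of the members were not used here.

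Values were used as deposited in 1 linear model with a mean per stage over 33 arrays (limma 3.58.1, statmod 1.5.0, R 4.3.3). A probe was tested where both stages had 2 values or more, with Benjamini-Hochberg adjustment over all such probes and a threshold of 0.05. The fit was tested on simulated data. Stage means, lists and figures used Matplotlib 3.10.9, NumPy 2.4.6, pandas 2.3.3 and Python 3.11.15. All 9 members are named. Of each of the 4 lists up to 3 called genes per direction and longer change are named, largest first, and for each member the 3 most similar probes. The members, lists, markers and this rule were chosen with earlier results of these data known.

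Replicate letters a, b and c recur at every stage. Deviations of equal letters from their stage means correlated above 0.1 for every letter in 5 of 14 comparisons, among them 0 h to 6 h APF (0.60, 0.38 and 0.36) and 8 h to 10 h APF (0.33, 0.27 and 0.39), and there the fit with the letter as a block was set beside the one reported, which has no block.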

Additional observations from a re-analysis of the deposited data

How the results depend on the processing

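Of 37 called results of single genes, 729 of 747 alternative values kept the direction and the call, 18 kept the direction and missed the threshold, and none reversed; the losses concern Chs2, Cht8, Cht2, Cht4 and Cht9 and are given with those results. Of 33 results that were not called, 17 of 473 alternatives passed and 26 changed sign. Tried were median centring of each array, quantile normalization, scale normalization (chosen after seeing the data), no filter on missing values, only probes on all arrays, the replicate block, only the arrays compared, gene means, a robust prior variance and leaving out each array. The members called numbered 6 to 8 for the time course (8 in the fit reported, 7 to 8 with 1 array left out), 3 to 4 from 18 h BPF to 0 h (3, and 2 to 4), 4 to 5 from 0 h to 6 h APF (5, and 4 to 5), 3 from 6 h to 12 h APF under every alternative, and 5 to 7 over the whole interval (6, and 5 to 6). The lowest counts of 6 for the time course, 4 from 0 h to 6 h APF and 5 over the whole interval came with only probes on all arrays. That setting leaves out Cht2 and Peritrophin-15b untested. Apart from leaving out 1 array, no setting lost a tested call in those 3 comparisons. Without array b of 4 h BPF Cht2 lost its call for the time course (adjusted p = 0.0676, limma). Without array a of 18 h BPF Cht4 lost its call over the whole interval (adjusted p = 0.0598, limma). With 1 array left out, Peritrophin-15b was also untested where a stage kept 1 value. Steps between neighbouring stages gave 5 calls, 4 to 7 with 1 array left out, and 8 under quantile normalization and 8 with the replicate block. The block changed none of the 8 member calls in the 5 comparisons where equal letters correlated above 0.1 for every letter. In 4 of those 5 every array correlated best with its own letter. In the other 9 the block raised 14 calls to 17 (Peritrophin-15b and Cht4 from 0 h to 2 h APF, Chs2 from 10 h to 12 h APF, adjusted p = 0.0424, 0.0335 and 0.0375), and in 2 of the 9 every array correlated best with its own letter.

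Sign changes were all in uncalled values, and their cause was not tested. Quantile normalization gave -0.032 for Cht2 from 6 h to 12 h and 0.11 from 2 h to 6 h APF, 0.16, 0.75 and 0.85 for Cht8 from 18 h BPF to 0 h, 0 h to 6 h and 2 h to 6 h APF, -0.69 and -0.20 for Peritrophin-15a from 6 h and from 8 h to 12 h, 0.035, -0.93 and -0.16 for Peritrophin-15b from 18 h BPF to 0 h and from 6 h and 8 h to 12 h, -0.31 and -0.17 for Muc55B in the last 2 of these, and 0.044 for Cht4 from 8 h to 12 h. Scale normalization gave -0.061 and 0.048 for Cht2 from 6 h to 12 h and 2 h to 6 h, and 0.062 for Cht4 from 8 h to 12 h. With 1 array left out the ranges were -0.17 to 0.34 for Chs2 from 18 h BPF to 0 h, -0.21 to 0.23 and -0.26 to 0.18 for Cht2 from 6 h to 12 h and 2 h to 6 h, -0.71 to 0.079 and -0.62 to 0.14 for Cht8 from 0 h and from 2 h to 6 h, and -0.42 to 0.18 for Cht4 from 8 h to 12 h. With 3 arrays per stage and no intensities, changes of low ratios cannot be graded by signal.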
